A study of Mus musculus with 6 samples.

Results

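The transcripts examined here encode the granins and peptide hormones of enteroendocrine cells, the hormone-secreting cells of the gut lining. They are the 10 rows of the count table with the symbols Chga, Chgb, Gcg, Ghrl, Cck, Sct, Gip, Sst, Pyy and Nts, out of 24594 rows. They were chosen by symbol, with earlier results of these data known. The cells were mouse small-intestinal organoids, cultured epithelial structures with crypt-like and villus-like parts, that had been grown from single cells for 96 h. For a further 24 h they received either NIBR-LTSi at 5 uM, an inhibitor of the LATS kinases that restrain the co-activators YAP and TAZ in the Hippo pathway, or the same amount of its solvent, DMSO. Each group had 3 libraries. The labels name no mouse strain, genotype or age. They also leave unsaid if a replicate is its own culture, and the tests therefore weigh the groups only against the spread among these 6 libraries, which may be technical.

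Enteroendocrine cells are scattered singly through the intestinal epithelium and arise from secretory progenitors that switch on the transcription factor Neurog3. Each cell stores peptide hormones in dense-core granules, where prohormones are cut by convertases and packed together with granins, and releases them when nutrients reach its sensors. Subtypes are classically named by their main product: Gip marks K cells, Cck I cells, Sct S cells, Sst D cells, Ghrl X cells, and Gcg, Pyy and Nts the L and N cells, although single cells often make several hormones.

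With NIBR-LTSi, the granins and the hormones did not move together. Chga, Chgb, Gip, Cck and Ghrl fell, Gcg and Nts rose, and Sst and Sct were not called. Pyy, with 61 counts in all, was called higher, but only its NIBR-LTSi libraries were over the count filter, so a difference was built into its being tested. The largest fall was that of Ghrl (1.77-fold) and the firmest rise that of Gcg (1.54-fold). In total 8 of the 10 members passed the test, against 42.0% of the 12592 genes tested; 3 were higher, against 22.8% of all genes, and 5 were lower, against 19.2%. The 3 called higher became 1 in DESeq2, 1 without any of DMSO replicates 1, 2 and 3 or NIBR-LTSi replicates 2 and 3, and 2 without NIBR-LTSi replicate 1, as Pyy and Nts lost their calls. The test throughout is the edgeR quasi-likelihood test with Benjamini-Hochberg adjustment over all genes tested, and a gene is called at an adjusted p under 0.05. The median log2 fold change was -0.11 over the 10 members and 0.02 over all tested genes. The libraries of the 2 groups did not overlap for 8 members, Pyy among them, and did not overlap for 52.5% of all tested genes. In bulk samples such as these, fewer cells of a type and less RNA per cell cannot be told apart.

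**Figure D1:**
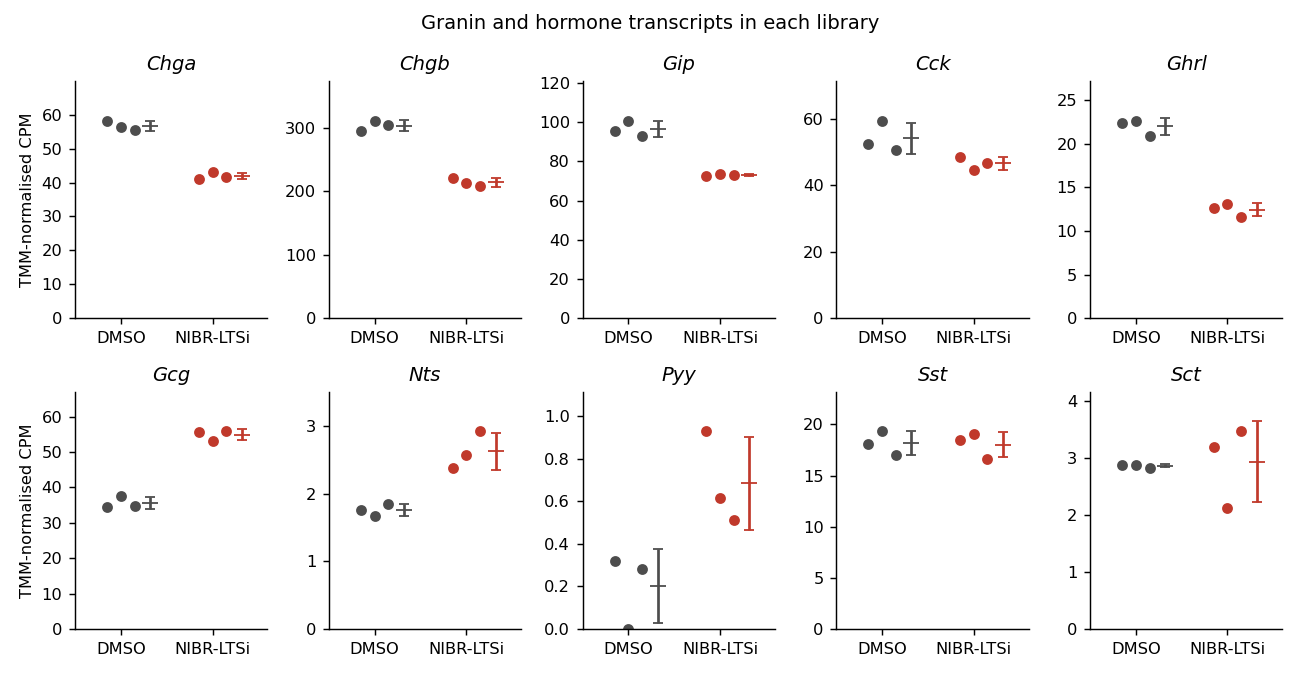
Level of the 10 members in CPM, each count divided by the TMM-adjusted total of its library, 1 panel per gene with its own linear axis from 0; each point is 1 library and the bar beside it is the mean ± SD of 3. Chga, Chgb, Gip, Cck and Ghrl lie lower with NIBR-LTSi and Gcg, Nts and Pyy higher, with no overlap of the groups, while Sst and Sct overlap.

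The sequence upstream of a start site is where factors that set a gene's level can bind, so the 250 bases before the start are shown for the granin Chga and for Gcg and Ghrl, the hormones that moved in opposite directions. Sequences are from RefSeq on GRCm38.p6, the assembly of mm10, and all 10 members were matched by symbol. Each is written 5′ to 3′ on the gene's own strand and ends 1 base before the start. Capitals mark matches, on either strand, to 3 motifs: the E-box CANNTG bound by basic helix-loop-helix factors such as Neurog3 and Neurod1, the cyclic AMP response element TGACGTCA, and GGAATG, the core bound by TEAD factors, the partners of YAP. The Chga window is chr12:102554691-102554940 on the plus strand, the Gcg window chr2:62483654-62483903 on the minus strand, and the Ghrl window chr6:113719912-113720161 on the minus strand. Ghrl has 4 starts listed, and the window shown lies before the second, which is at the 5′ end of the gene; the other starts lie inside the gene.
Chga: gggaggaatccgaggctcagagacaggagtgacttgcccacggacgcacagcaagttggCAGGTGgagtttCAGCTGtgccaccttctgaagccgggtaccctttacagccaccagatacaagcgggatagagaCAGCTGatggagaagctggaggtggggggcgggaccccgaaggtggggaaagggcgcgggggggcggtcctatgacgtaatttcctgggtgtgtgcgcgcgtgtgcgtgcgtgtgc
Gcg: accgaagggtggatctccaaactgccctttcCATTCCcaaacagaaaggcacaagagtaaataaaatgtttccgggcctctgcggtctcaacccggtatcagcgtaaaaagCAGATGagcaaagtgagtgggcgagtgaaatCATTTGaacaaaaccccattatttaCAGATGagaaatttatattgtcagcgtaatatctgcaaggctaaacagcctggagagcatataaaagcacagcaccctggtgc
Ghrl: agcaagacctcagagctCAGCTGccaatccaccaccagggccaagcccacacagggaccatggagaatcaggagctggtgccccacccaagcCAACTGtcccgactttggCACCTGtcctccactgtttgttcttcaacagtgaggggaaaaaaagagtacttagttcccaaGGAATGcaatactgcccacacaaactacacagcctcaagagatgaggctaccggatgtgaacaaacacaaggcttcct

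In these windows GGAATG was matched once in Gcg, on the opposite strand with its first base 219 bases before the start, and once in Ghrl, 78 bases before the start. It was matched in 2 of the 10 members, taking the first start listed for each gene, and in 12.6% of the 32851 upstream windows in the RefSeq table. The first start listed for Ghrl, inside the gene, had a match 25 bases before it, and the other two starts had none. At least 1 E-box was present in all 10 members and in 66.2% of all windows. The Chga window holds 3 E-boxes, the Gcg window 3 and the Ghrl window 3.

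The full cyclic AMP response element was matched in 2 members, Chgb and Sst, and in 1.55% of all windows. The 28 bases around it are shown because the granin fell and the hormone was not called. The Chgb stretch is chr2:132781560-132781587 on the plus strand, with the element beginning 72 bases before the RefSeq start, and the Sst stretch is chr16:23890875-23890902 on the minus strand, with the element beginning 48 bases before its listed RefSeq start. In GENCODE an exon of the gene itself covers each stretch (132781278 to 132781782 for Chgb and 23890607 to 23890958 for Sst). The RefSeq gene span of Sst (23889573 to 23891342) covers its stretch too. Each stretch is thus upstream only of the listed start used for its window.
Chgb: ggctgctccgTGACGTCAgggctgagcg
Sst: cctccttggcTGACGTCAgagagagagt

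The windows also differed in base composition. The GC content was 72.8% for Chgb, 68.0% for Sct and 62.4% for Chga, against a median of 52.4% over all windows, and 44.8% for Gcg and 47.2% for Sst. Both granins therefore had GC-rich upstream windows with 26 (Chgb) and 16 (Chga) CpG dinucleotides, against a median of 6 over all windows. This was not particular to the granins. Sct had 22 CpG dinucleotides, and the GC content was 60.0% for Cck and 61.2% before the first listed start of Pyy. Gip had 1 CpG dinucleotide and the Ghrl window shown had 2. A match or a composition is a description of these letters and shows no binding.

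The library totals ranged from 18395427 to 26767043 counts and did not separate the groups. The members took 0.0573% to 0.0599% of all counts in the DMSO libraries and 0.0471% to 0.0478% in the NIBR-LTSi libraries. All 4 epithelial markers (Epcam, Cdh1, Vil1 and Krt8) were abundant, at 5507 to 5567 CPM summed in DMSO and 5902 to 6328 CPM with NIBR-LTSi. Markers of other cells that make granins and peptides were low: of the 4 islet markers Ins1 and Ppy had no count and the sum was at most 0.329 CPM, and of the enteric neuron and glia markers Sox10 had no count. The neuronal and glial sum was 6.11 to 6.85 CPM in DMSO and 4.65 to 4.97 with NIBR-LTSi, most of it Ret (5.33 to 6.14 and 3.89 to 4.09 CPM), and its part in the results was not tested. Fibroblast markers summed to at most 0.189 CPM in any library, endothelial markers to at most 0.803 and leukocyte markers to at most 2.63, of which Csf1r made up at most 2.56. The sum of the 7 goblet markers was 2865 to 3225 CPM in DMSO and 3242 to 3568 with NIBR-LTSi, but its members differed: Clca1 was at 230 to 237 and 787 to 795 CPM, and Spink4 at 206 to 225 and 120 to 134 CPM. The 5 Paneth markers summed to 565 to 622 and 454 to 511 CPM, most of it Itln1 and Defa24, and they also differed. Itln1 (265 to 290 and 197 to 213 CPM) and Lyz1 were lower in every NIBR-LTSi library, and Defa24 overlapped. Mmp7 (10.8 to 12.2 and 17.3 to 18.8 CPM) and Ang4 (12.4 to 15.2 and 17.4 to 19.9 CPM) were higher in every one. The 6 enteroendocrine markers summed to 369 to 387 and 267 to 278 CPM, nearly all of it Chga and Chgb, so this sum restates the granins; of the other 4, Neurod1, Pcsk1 and Scg5 overlapped between the groups and Syp did not. The 6 enterocyte markers summed to 35010 to 36011 and 29395 to 31874 CPM, but they differed. Sis, the largest part of the sum (13524 to 14676 and 10205 to 11533 CPM), Fabp1 and Fabp2 were lower in every NIBR-LTSi library. Alpi (1547 to 1600 and 1893 to 1967 CPM) and Apoa1 (3906 to 4198 and 4997 to 5540 CPM) were higher in every one, and Apoa4 overlapped. The 6 tuft markers summed to 3.97 to 4.49 and 3.46 to 4.91 CPM. The 4 stem cell markers summed to 144 to 153 and 152 to 165 CPM, most of it Smoc2 (125 to 132 and 141 to 152 CPM), while Olfm4 (16.6 to 17.9 and 7.77 to 10.1 CPM) and Lgr5 (2.41 to 3.39 and 1.64 to 2.01 CPM) were lower in every NIBR-LTSi library.

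The granins are acidic proteins that help to condense peptides in dense-core granules, and their transcripts are used as general markers of endocrine cells. Chga (Entrez 12652; chromosome 12, 102554941 to 102565027, plus strand), the gene of chromogranin A, was at 58.3, 56.3 and 55.5 CPM in DMSO replicates 1 to 3 and at 41.2, 43.0 and 41.5 CPM in NIBR-LTSi replicates 1 to 3. All 3 treated libraries lay below all 3 controls. The fall was 1.35-fold, or -0.44 ± 0.05 (SE) on the log2 scale (adjusted p = 2.04e-05, edgeR).

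Chgb (Entrez 12653; chromosome 2, 132781642 to 132795079, plus strand), the gene of chromogranin B, was the most abundant member by CPM, at 295, 312 and 305 in the DMSO libraries and 221, 213 and 208 in the NIBR-LTSi libraries. Again the groups were well apart. Its log2 fold change was -0.50 ± 0.04 (SE; adjusted p = 1.11e-06, edgeR), a 1.42-fold fall. The count of Chgb per count of Chga was 5.36 ± 0.26 (SD, n = 3) in DMSO and 5.11 ± 0.23 with NIBR-LTSi, and these ratios overlapped between the groups (exact permutation test, p = 0.20).

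Gip (Entrez 14607; chromosome 11, 96024532 to 96030831, plus strand) encodes the incretin of K cells, which strengthens insulin release after a meal. It was at 95.4, 101 and 93.0 CPM in DMSO and 72.4, 73.7 and 72.9 CPM with NIBR-LTSi. The treated libraries lay within a narrow band under the lowest control. The fall was 1.32-fold (log2 fold change -0.40 ± 0.04, adjusted p = 2.25e-05), close in size to those of the granins.

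Ghrl (Entrez 58991; chromosome 6, 113716119 to 113719911, minus strand) encodes ghrelin, the hunger-promoting peptide of X cells. It was at 22.4, 22.7 and 20.9 CPM in DMSO and 12.6, 13.1 and 11.6 CPM with NIBR-LTSi. The highest treated library was well below the lowest control. Its log2 fold change of -0.82 ± 0.07 (SE; adjusted p = 3.89e-06) was the largest fall of the 10. In the GENCODE annotation Ghrl exons overlap 2 non-coding genes on the opposite strand, Gm26982 and Gm44033, and the strand setting of the counting is not given in the sources used here, so reads from these genes could not be told apart from Ghrl reads. The other 9 members overlap no annotated gene. The acyltransferase Mboat4, which activates ghrelin, had 28 counts over all 6 libraries and was below the count filter.

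Cck (Entrez 12424; chromosome 9, 121489824 to 121495694, minus strand) encodes cholecystokinin, which empties the gallbladder and stimulates pancreatic secretion. It was at 52.2, 59.4 and 50.6 CPM in DMSO and 48.5, 44.6 and 46.6 CPM with NIBR-LTSi. The groups did not overlap, but the gap between the highest treated and the lowest control library was small. This was the smallest fall called, 1.16-fold (-0.21 ± 0.06 on the log2 scale, adjusted p = 0.0184). It was no longer called without DMSO replicate 2 (log2 fold change -0.14, adjusted p = 0.0643) and without NIBR-LTSi replicate 2 (-0.20, adjusted p = 0.0721).

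Gcg (Entrez 14526; chromosome 2, 62474530 to 62483653, minus strand) encodes proglucagon, which L cells cut into the glucagon-like peptides GLP-1 and GLP-2. It was at 34.6, 37.5 and 34.8 CPM in DMSO and 55.8, 53.1 and 55.9 CPM with NIBR-LTSi. Every treated library lay above every control. The rise was 1.54-fold (log2 fold change 0.63 ± 0.05, adjusted p = 2.54e-06), and it was called under all 14 alternatives, with log2 fold changes from 0.60 to 0.67.

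Nts (Entrez 67405; chromosome 10, 102481756 to 102490418, minus strand) encodes neurotensin, a peptide of the distal small intestine released by fat. Its counts were 44, 30 and 39 in DMSO and 46, 63 and 80 with NIBR-LTSi, or 1.76, 1.67 and 1.84 against 2.37, 2.58 and 2.92 CPM. The groups did not overlap, at a level at which counting error is large. The log2 fold change was 0.58 ± 0.19 (SE; adjusted p = 0.0277), and the gene was called higher. That call did not hold when any library except NIBR-LTSi replicate 1 was left out: the adjusted p was 0.0802, 0.0710 and 0.0527 without DMSO replicates 1, 2 and 3, and 0.0763 and 0.117 without NIBR-LTSi replicates 2 and 3. It was also lost in DESeq2 (adjusted p = 0.131).

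Pyy (Entrez 217212; chromosome 11, 102106676 to 102107832, minus strand) encodes peptide YY, which slows gut transit and is made mainly in the ileum and colon. It was nearly absent, with 8, 0 and 6 counts in DMSO and 18, 15 and 14 with NIBR-LTSi. A count of 0 in DMSO replicate 2 allows a level of up to 0.167 CPM. Pyy passed the count filter only through the treated libraries, so that a difference was built into its being tested. The 47 counts against 14 gave a ratio of 3.03 (95% exact interval 1.64 to 5.95, counting error only). The fitted log2 fold change was 1.63 ± 0.59 (SE; adjusted p = 0.0478). Leaving out any 1 of the 6 libraries ended the call, with adjusted p-values of 0.0666, 0.0785 and 0.0694 without DMSO replicates 1, 2 and 3 and 0.129, 0.113 and 0.0641 without NIBR-LTSi replicates 1, 2 and 3. DESeq2 (adjusted p = 0.0691) and the absence of a low-count filter (0.0544) ended it too.

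Sst (Entrez 20604; chromosome 16, 23889573 to 23891342, minus strand) encodes somatostatin, the D cell peptide that inhibits other endocrine cells. It was at 18.1, 19.3 and 17.0 CPM in DMSO and 18.4, 19.0 and 16.6 CPM with NIBR-LTSi. The groups overlapped almost completely. The log2 fold change was -0.01 ± 0.08 (SE; adjusted p = 0.937), with a 95% interval of -0.18 to 0.16, which does not reach the falls of the granins, Gip or Ghrl.

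Sct (Entrez 20287; chromosome 7, 141278329 to 141279174, minus strand) encodes secretin, which draws bicarbonate from the pancreas and is made by many enteroendocrine cells as they mature. It had 72, 52 and 60 counts in DMSO and 62, 52 and 95 with NIBR-LTSi, or 2.88, 2.89 and 2.83 against 3.20, 2.13 and 3.47 CPM. The 3 treated libraries were spread on both sides of the controls. The 95% interval of its log2 fold change (0.03 ± 0.20, adjusted p = 0.919) ran from -0.41 to 0.47. A fall of the size seen in Gip (-0.40) lay just inside it and was therefore not excluded.

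**Figure D2:**
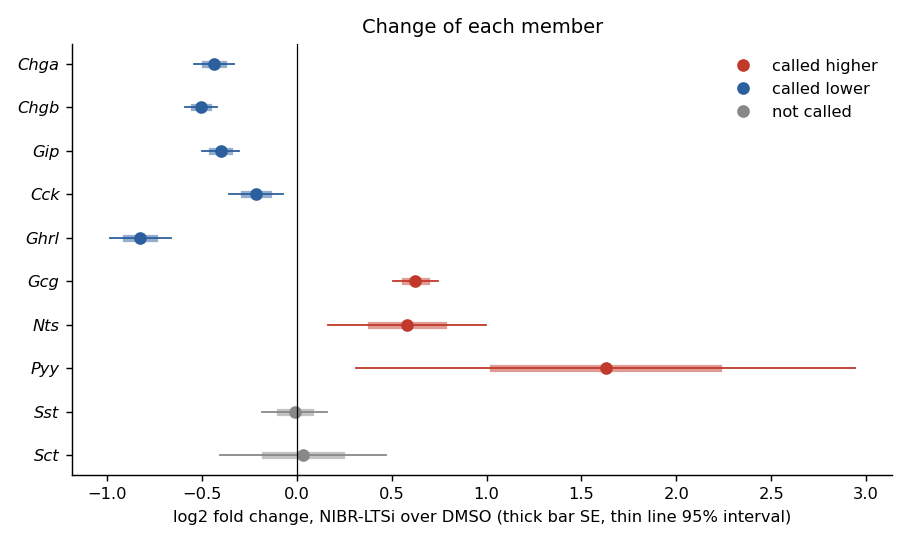
Log2 fold change of each member, NIBR-LTSi over DMSO, with its standard error (thick bar) and approximate 95% interval (thin line). Ghrl (-0.82) and Gcg (0.63) lie on opposite sides of 0 with short intervals, whereas the interval of Pyy (0.31 to 2.94) is the widest.

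Levels of different genes were compared per length, as CPM per kb of the gene width in the count table. In DMSO organoids Gip (140 ± 6; SD, n = 3) led, followed by Chgb (111 ± 3) and Cck (41.4 ± 3.6). Sst (25.2 ± 1.6), Gcg (23.9 ± 1.1), Ghrl (22.4 ± 1.0) and Chga (20.6 ± 0.5) followed closely, and Sst and Gcg overlapped between libraries. Sct (4.45 ± 0.05), Nts (1.41 ± 0.07) and Pyy (0.319 ± 0.278) were far lower. With NIBR-LTSi, Gip (106 ± 1) and Chgb (78.1 ± 2.4) kept the first 2 places. Gcg (36.8 ± 1.1) was then level with Cck (35.7 ± 1.5), with overlapping libraries, and Ghrl (12.6 ± 0.8) was below Chga (15.2 ± 0.4).

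The 8 hormones together summed to 259 ± 12 CPM per kb in DMSO and 224 ± 2 with NIBR-LTSi (0.864 of the control), and the 2 granins to 131 ± 3 and 93.3 ± 2.3 (0.710 of the control). Neither sum overlapped between the groups. As a share of the summed hormone counts per kb, Gip was 54.1% ± 0.4 (SD, n = 3) in DMSO and 47.4% ± 0.8 with NIBR-LTSi, and Gcg 9.20% ± 0.17 and 16.4% ± 0.4. Ghrl was 8.62% ± 0.23 and 5.64% ± 0.33, Sst 9.70% ± 0.19 and 11.2% ± 0.7, and Cck 16.0% ± 0.6 and 15.9% ± 0.5. The mean Gcg share was thus close to that of Ghrl in DMSO and close to that of Cck with NIBR-LTSi, and the Cck shares of the groups overlapped. The mean shares of Sct, Nts and Pyy were at most 2.03% in either group.

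**Figure D3:**
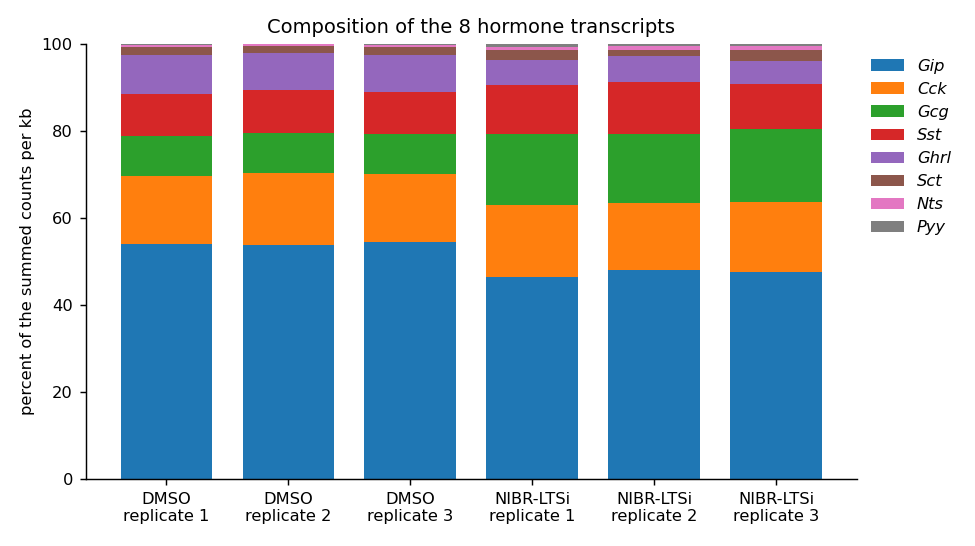
Share of each of the 8 hormone transcripts in their summed counts per kb, 1 bar per library, in percent. The Gcg band is 9.04% to 9.37% in the DMSO libraries and 15.9% to 16.8% in the NIBR-LTSi libraries, and the Gip band is narrower with NIBR-LTSi.

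To compare members inside a library, which removes any scaling between libraries, the counts of 8 members were divided by those of Chga, and those of Gcg by those of Ghrl. These 9 ratios were tested with a two-sided exact permutation test over the 6 libraries, which cannot give a p below 0.10 with 3 against 3, and the p-values were adjusted over the 9. None could therefore be called. Gcg per Chga was 0.594, 0.666 and 0.627 in DMSO and 1.35, 1.23 and 1.35 with NIBR-LTSi, a 2.09-fold difference (exact p = 0.10, adjusted 0.18). Nts per Chga differed 2.02-fold and Sst per Chga 1.34-fold in the same direction, with no overlap of the groups (exact p = 0.10, adjusted 0.18 for each). Sst itself was not called (log2 fold change -0.01), so its ratio restates the fall of Chga.

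Ghrl per Chga was 0.388 ± 0.013 in DMSO and 0.297 ± 0.014 with NIBR-LTSi, also without overlap (exact p = 0.10, adjusted 0.18). Gip per Chga, by contrast, was 1.70 ± 0.08 and 1.74 ± 0.03 (exact p = 0.40, adjusted 0.40). Cck per Chga (0.954 ± 0.087 and 1.11 ± 0.07) and Sct per Chga (0.0506 ± 0.0010 and 0.0703 ± 0.0183) overlapped between the groups as well. The ratio of Gcg to Ghrl sets against each other the fold changes already given for the 2 genes, and describes them inside each library: there were 1.55, 1.65 and 1.66 Gcg counts per Ghrl count in the DMSO libraries and 4.43, 4.06 and 4.81 in the NIBR-LTSi libraries, a 2.73-fold difference (exact p = 0.10, adjusted 0.18).

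**Figure D4:**
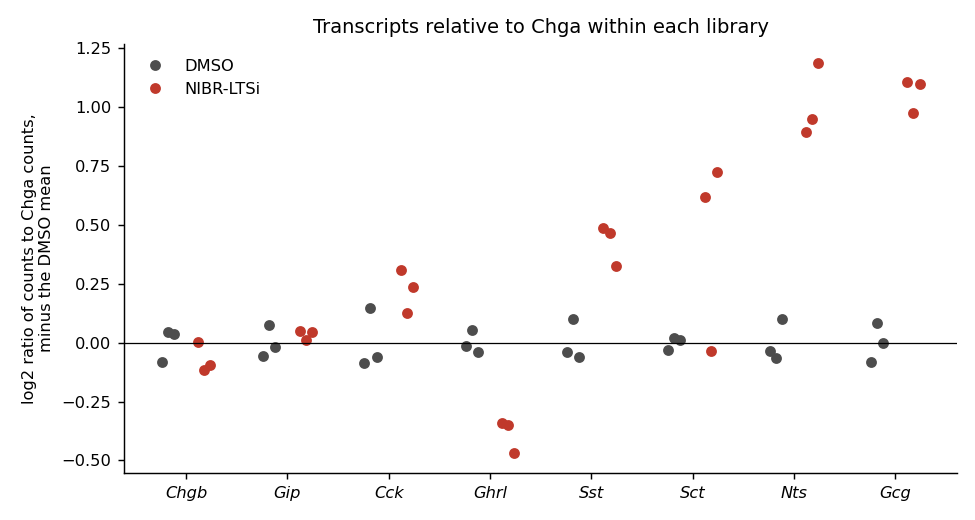
Log2 ratio of the counts of 8 members to the counts of Chga in the same library, minus the DMSO mean; each point is 1 library. Chgb and Gip stay near 0 in both groups, Ghrl lies below it with NIBR-LTSi, and Sst, Nts and Gcg lie above it; 1 NIBR-LTSi library of Sct sits with the controls.

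Over the 6 libraries, the tested genes whose log2 CPM was most like that of Chga were Chrna2 (Pearson r = 0.999), Sox13 (r = 0.999) and Creb3l3 (r = 0.999). Since all 3 were also lower with NIBR-LTSi, these values mostly restate the difference between the groups, and all genes share the same libraries. Among the members, Ghrl (r = 0.992), Gip (0.981) and Chgb (0.973) were closest to Chga, and Gcg was farthest (r = -0.991).

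Of 22 other peptide hormone and granin genes, 10 were abundant enough to test, 3 fell, against 19.2% of all tested genes, and none rose, against 22.8%, with a median log2 fold change of -0.41. Tac1, the gene of substance P, fell from 12.9 ± 0.8 to 8.81 ± 0.87 CPM (-0.56 ± 0.10 on the log2 scale, adjusted p = 6.30e-04). Pcsk1n, which encodes the granin-like convertase inhibitor proSAAS, was at 0.611 ± 0.127 and 0.267 ± 0.017 CPM (-1.17 on the log2 scale, adjusted p = 0.0212). It had 13, 10 and 16 counts in DMSO and 5, 7 and 7 with NIBR-LTSi. Only its DMSO libraries were over the count filter, so a difference was built into its being tested. Pcsk1n is among the 3 falls, so the share set against 19.2% rests partly on that filter. The granin Scg3 fell from 2.97 ± 0.19 to 1.96 ± 0.47 CPM (-0.59, adjusted p = 0.0380).

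The calls of Pcsk1n and Scg3 were lost when single libraries were left out. For Pcsk1n the adjusted p was 0.101 without DMSO replicate 3 and 0.0702, 0.0615 and 0.0763 without NIBR-LTSi replicates 1, 2 and 3; it was 0.0777 with no low-count filter. For Scg3 it was 0.131, 0.0790 and 0.0561 without DMSO replicates 1, 2 and 3 and 0.0965 and 0.104 without NIBR-LTSi replicates 1 and 3. In DESeq2 neither was called (adjusted p = 0.153 for Pcsk1n and 0.0881 for Scg3), and Scg3 was at 0.0566 with library totals only. Of the rest, Vgf was at 1.80 ± 0.08 and 1.17 ± 0.29 CPM (adjusted p = 0.0723). Scg2 was at 10.7 ± 1.6 and 12.3 ± 1.0 CPM (0.21 ± 0.11 on the log2 scale, adjusted p = 0.147) and was not called. It was named after its values were seen. Of the 10 tested genes, 9 had a log2 fold change below 0, and Scg2 was the exception. Without DMSO replicate 3, NIBR-LTSi replicate 1 or NIBR-LTSi replicate 3 the count of falls was 1 rather than 3, as it was in DESeq2, and 1 gene of this list was called higher without DMSO replicate 2.

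Of 26 genes that process prohormones or release granules, 23 were tested, 3 rose and 4 fell, with a median of -0.14; the 7 called of 23 were a smaller share than the 42.0% of all tested genes. Pam, the enzyme that amidates the C terminus of peptides such as cholecystokinin, secretin and peptide YY, rose from 10.5 ± 1.8 to 30.7 ± 1.2 CPM (1.56 ± 0.10 on the log2 scale, adjusted p = 2.99e-07). Cadps2, a priming factor for granule exocytosis, rose from 16.2 ± 0.6 to 21.4 ± 1.5 CPM, and Slc18a1, the vesicular monoamine transporter of serotonin cells, from 26.1 ± 0.5 to 32.3 ± 1.1 CPM (adjusted p = 0.00106 and 9.48e-04). In the other direction, the vesicle protein Syp fell from 1.85 ± 0.15 to 0.965 ± 0.181 CPM (-0.92 ± 0.25 on the log2 scale, adjusted p = 0.0103). The granule GTPase Rab3d fell from 73.0 ± 0.6 to 51.8 ± 1.3 CPM (adjusted p = 3.45e-06). Its relative Rab3a fell from 10.6 ± 0.5 to 8.73 ± 0.22 CPM (adjusted p = 0.0223). Rab3d was more abundant than Chga (56.7 ± 1.4 CPM in DMSO and 41.9 ± 1.0 with NIBR-LTSi). Bulk samples do not show which cells expressed Rab3d, Pam or the other genes of this list.

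Cplx2, a complexin that acts in vesicle fusion, was at 5.24 ± 0.37 and 3.86 ± 0.71 CPM (-0.43 ± 0.15 on the log2 scale, adjusted p = 0.0392). Its call was lost without DMSO replicates 1 and 2 (adjusted p = 0.143 and 0.0773), without NIBR-LTSi replicate 1 (0.106), with library totals only (0.0694) and in DESeq2 (0.0901). That of Rab3a was lost without DMSO replicates 2 and 3 (0.0533 and 0.0623), without NIBR-LTSi replicate 2 (0.0658) and in DESeq2 (0.0936). Without DMSO replicate 2 this list had 2 falls rather than 4. The prohormone convertase gene Pcsk1 (-0.14 ± 0.09 on the log2 scale, adjusted p = 0.256) and the carboxypeptidase gene Cpe (-0.12 ± 0.08, adjusted p = 0.280) were not called. These 2 and Mboat4 were picked for mention after their values were seen.

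Of 22 genes of nutrient sensing and excitability, 14 were tested, 3 fell, a share near the 19.2% of all tested genes, and none rose, with a median of -0.19. Slc5a1, the sodium-glucose cotransporter that also serves glucose sensing and is abundant in enterocytes, fell from 3148 ± 46 to 2312 ± 52 CPM (-0.45 ± 0.03 on the log2 scale, adjusted p = 6.24e-07). The lysophosphatidic acid receptor Lpar5 fell from 38.9 ± 0.6 to 29.3 ± 1.4 CPM (adjusted p = 1.23e-04). The irritant channel Trpa1 was at 6.44 ± 0.65 and 5.11 ± 0.18 CPM (-0.33 ± 0.12 on the log2 scale, adjusted p = 0.0411), and its adjusted p was 0.0550 and 0.155 without DMSO replicates 2 and 3 and 0.0796, 0.0918 and 0.0675 without NIBR-LTSi replicates 1, 2 and 3. It was 0.0741 with library totals only, 0.0635 with no low-count filter and 0.137 in DESeq2. Cacna1d, a calcium channel subunit, was at 0.730 ± 0.149 and 0.430 ± 0.162 CPM (adjusted p = 0.119), and 1 gene of the list was called higher without DMSO replicate 3.

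Among 22 lineage factors and serotonin genes, 18 were tested, 2 fell, Sox4 and the decarboxylase Ddc, and 1 rose, Rfx3, with a median of -0.14. The 3 called of 18 were a smaller share than the 42.0% of all tested genes. Sox4, which acts early in endocrine differentiation, fell from 51.3 ± 3.1 to 38.0 ± 1.0 CPM (adjusted p = 7.72e-05), Ddc from 189 ± 3 to 171 ± 2 CPM (adjusted p = 0.00721), and Rfx3 rose from 6.52 ± 0.17 to 8.55 ± 0.42 CPM (adjusted p = 0.00653; 0.0579 in DESeq2). Neurog3, the factor that starts the lineage, was at 1.85 ± 0.39 and 1.18 ± 0.19 CPM (-0.63 ± 0.25 on the log2 scale, adjusted p = 0.0649). Ddc was more abundant than Chga, and bulk samples do not show which cells expressed it.

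Finally, of 25 receptors and degrading enzymes of the member hormones, only 7 were tested, and 18 were below the filter; 2 of the 7 were called, against 42.0% of all tested genes. The aminopeptidase Enpep rose from 605 ± 16 to 1166 ± 31 CPM and the neprilysin gene Mme, whose product cleaves many small peptides, fell from 938 ± 30 to 733 ± 36 CPM (adjusted p = 3.79e-09 and 3.26e-05). Both were far more abundant than Chga, and bulk samples do not show which cells expressed them. The neurotensin-binding sorting receptor Sort1 (135 ± 10 and 125 ± 6 CPM, adjusted p = 0.138) and the peptidase Ace (436 ± 12 and 424 ± 4 CPM, adjusted p = 0.353) were not called. Dpp4, the protease that inactivates GLP-1 and Gip peptides, was at 257 ± 3 and 257 ± 6 CPM, and the GLP-1 receptor gene Glp1r had 6 counts over all libraries; both were named after their values were seen. Without DMSO replicate 2 this list had 2 falls rather than 1.

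**Figure D5:**
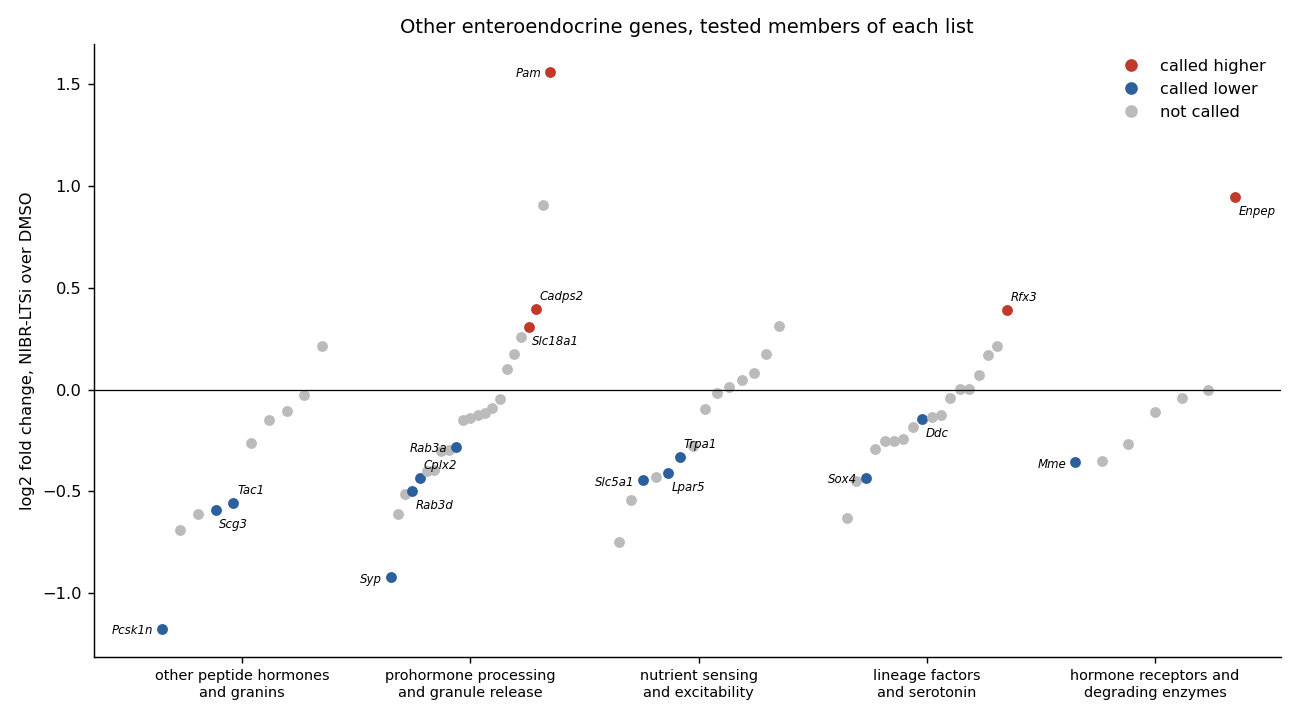
Log2 fold change, NIBR-LTSi over DMSO, of every tested gene of 5 lists of genes tied to enteroendocrine function, sorted within each list. Coloured points passed the test and are named. Some, such as Slc5a1, Mme, Enpep and Ddc, were more abundant than Chga, and bulk samples do not show which cells expressed them. Pam stands highest at 1.56 and Pcsk1n lowest at -1.17, and most points of each list are grey. Pcsk1n passed the count filter only through its DMSO libraries.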

How the data were processed

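RNA from 6 mouse intestinal organoid samples (3 given DMSO, 3 given NIBR-LTSi) was made into libraries with a stranded mRNA kit, per the labels' protocols. The authors deposited 1 table of raw counts per gene with a gene width; per the submitters' processing notes the build was mm10 and edgeR was used. Neither the aligner nor the counting tool and its strand option is named; each is not given in the sources used here. The table had 24594 rows, of which 18127 held at least 1 count.

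Counts were TMM-normalised and filtered with filterByExpr, which left 12592 genes, and were tested with the robust two-sided quasi-likelihood F-test of edgeR 4.0.16 in R 4.3.3, whose model held only the group. The SE was calculated back from the F statistic, and 95% intervals from it. The code was tested on simulated data. No pair of libraries in a group agreed within sampling noise (chi-square per degree of freedom 4.46 to 11.3).

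Alternatives were 3 other scalings, 2 other filters, DESeq2 (version 1.42.0), limma-voom (limma 3.58.1), the replicate number as a block, and leaving out each library. Named genes were the 10 members, the called members of 5 other lists with up to 4 of smallest p in each, and the 3 genes most like Chga. Members and lists were chosen with earlier results of these data known. Overlaps and exons came from GENCODE M21 (GRCm38). Gene positions came from RefSeq, matched on Entrez identifier. The value of 1 marker gene is not reported here.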

Additional observations from a re-analysis of the deposited data

How the results depend on the processing

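The calls and directions of Chga, Chgb, Gip, Ghrl and Gcg were the same under all 14 alternatives, with log2 fold changes of -0.47 to -0.39, -0.54 to -0.46, -0.43 to -0.36, -0.88 to -0.78 and 0.60 to 0.67. The count of members called higher was 1 rather than 3 in DESeq2 and 2 with no low-count filter and with a filter of 1 CPM. It was 1 to 2 when 1 library was left out, with 2 only without NIBR-LTSi replicate 1; Pyy lost its call in each of these fits and Nts in all but that one. The count of members called lower stayed at 5 or 4. Sst and Sct were not called under any alternative. The filter of at least 1 CPM in 3 libraries left out Pyy and Pcsk1n, so it gave no value for them.

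The replicate numbers gave no clear sign of pairing. Same-numbered libraries deviated from their group means with correlations of 0.05, -0.30 and 0.56, the last being the highest of any pair. Not every library correlated best with its own number. With 3 libraries per group, each centred on its group mean, this check cannot exclude pairing. With the replicate block, 3 members were called higher and 5 lower, and in the other lists Pcsk1n (adjusted p = 0.0522), Cplx2 (0.0568) and Trpa1 (0.0608) were no longer called. The scalings moved the median log2 fold change of all genes by less than 0.1 (0.00 to 0.06). Dividing by gene width or not left the sign of the share difference the same for all 8 hormones; that of Cck went from -0.04 to -1.33 percentage points. For Nts, Sct and Pyy the depth limits the precision.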
